A study of Homo sapiens with 12 samples.

Results

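The MX, IFIT and IFI44 genes, with IFI6 and RSAD2, encode effector proteins of the interferon response. The 10 genes described here, MX1, MX2, IFIT1, IFIT2, IFIT3, IFIT5, IFI44, IFI44L, IFI6 and RSAD2, were taken by symbol from the 60583 gene names of the count table. All 10 were among the 21298 genes with enough counts to be tested. The set was chosen by name with measured values of these samples in view, among them lower MX1, IFI44 and RSAD2 counts on the conductive scaffold. The scaffold differences of its members are therefore a description. The libraries come from RUES2, an established human embryonic stem cell line with the genotype given as WT, differentiated to cardiomyocytes and kept in RPMI with B27 and insulin. At day 50 the cells were placed for 3 days on electrospun fibres, either the conductive 9.75% PEDOT:PSS/PVA (PEDOT below) or the non-conductive 8% PVA. Each scaffold had 3 biological replicates with 2 technical libraries apiece, which were summed to 6 sums unless single libraries are named. Nothing in the labels says that replicates came from separate differentiations, so every p-value reflects the spread of these samples alone, which may be technical.

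Type I and type III interferons bind cell surface receptors, and the kinases JAK1 and TYK2 then activate a transcription factor complex that holds IRF9 and binds a DNA element called the interferon-stimulated response element. The genes under this element are nearly silent to moderately active in resting cells and are switched on by viral infection. MX1 and MX2 are dynamin-like GTPases that trap viral nucleocapsids or capsids. IFIT proteins bind the ends of viral RNA or each other, and IFIT3 stabilises IFIT1. IFI44 and IFI44L are paralogs with a GTPase-like domain whose functions are less settled, IFI6 is a small membrane protein that limits flavivirus replication, and RSAD2, or viperin, makes a nucleotide analogue that ends viral RNA chains. Cardiomyocytes have a working interferon response, which protects the heart in viral myocarditis.

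Most members sit beside a relative on hg38, the build of the deposited coordinates. MX2 at chr21:41361999-41409393 lies 10.9 kb before MX1 at chr21:41420304-41459214, and IFI44L at chr1:78619922-78646145 lies 3.7 kb before IFI44 at chr1:78649796-78664078, all on the plus strand. The IFIT genes run along the plus strand of chromosome 10 in the order IFIT2 at chr10:89283694-89309271, IFIT3 at chr10:89327997-89340971, IFIT1 at chr10:89392546-89406487 and IFIT5 at chr10:89414568-89420997. Gaps between them were 18.7, 51.6 and 8.1 kb in that order. IFIT1B, another gene of this family, had 1 count in all 12 libraries together. IFI6 at chr1:27666064-27672198 on the minus strand and RSAD2 at chr2:6865806-6898239 on the plus strand stand apart from the others. Exons of IFIT2 share 356 bases with AL353751.1 on the same strand, and reads there were left out of both genes by the counting, so IFIT2 is counted over the rest of its exons. Counting was by strand, which separates the members from their antisense neighbours such as LIPA and CMPK2.

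The promoters show what the members share in sequence. In RefSeq promoters of GRCh38.p14, which span 250 bases before to 50 after a start site, 8 of the 10 genes were matched, and MX2 and IFIT2 were not. The core of the interferon-stimulated response element was searched on both strands as GAAA, any 2 bases and GAAA again, which the other strand reads as TTTC, any 2 bases and TTTC. It was present in at least 1 promoter of 8 of these 8 genes, against 4.38% of all 27305 genes with a promoter. By promoter, it was present in 11 of their 13, against 3.57% of all 35116 promoters. Those without it were 1 of the 3 promoters of MX1 and 1 of the 2 of RSAD2. A STAT homodimer motif, TTC, any 3 bases and GAA, was present in 1 of the 8, MX1, against 9.38% of all genes. The windows below are shown because they hold the shared element, in capitals, and they are written from 5′ to 3′ on the gene's own strand.
MX1: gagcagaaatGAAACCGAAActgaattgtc
IFIT1: tagTTTCACTTTCcccTTTCGGTTTCccta
IFIT3: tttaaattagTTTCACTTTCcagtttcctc
IFIT5: agTTTCGATTTCttaagTTTCAGTTTCtga
IFI44: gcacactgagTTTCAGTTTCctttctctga
IFI44L: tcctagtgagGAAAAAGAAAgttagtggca
RSAD2: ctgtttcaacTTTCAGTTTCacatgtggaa
IFI6: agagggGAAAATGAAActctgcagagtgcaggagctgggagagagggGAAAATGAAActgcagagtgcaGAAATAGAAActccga
These windows are chr21:41420559-41420588 for MX1, chr10:89392504-89392533 for IFIT1, chr10:89327865-89327894 for IFIT3, chr10:89414547-89414576 for IFIT5, chr1:78649761-78649790 for IFI44, chr1:78620365-78620394 for IFI44L, chr2:6877622-6877651 for RSAD2 and chr1:27672270-27672354 on the minus strand for IFI6. Within these windows IFIT1 and IFIT5 held 2 copies in 30 bases, and IFI6 held 3 copies in 85 bases. In its whole promoter IFIT5 also held 3 copies, and each promoter of IFIT3 and IFI44L held 2. Only 0.259% of all promoters held 2 or more copies. The MX1 match shown lies 11 to 20 bases after a start site, and the RSAD2 match is in the 1 of its 2 promoters that holds one. A match is a description of the letters and does not show that a factor binds there.

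Levels are CPM, counts set relative to the library total and to TMM factors, which adjust for composition differences between libraries. Library totals were 19.12 to 30.95 M counts, and the 6 sums held 44.5 to 57.5 M. Between genes, levels were compared as CPM per kb of exon length. IFI6 was the most abundant member at 25.7 ± 2.19 CPM per kb on PEDOT and 38.6 ± 11.97 CPM per kb on PVA (SD, n = 3 each), and its lowest sum, at 24.3 CPM per kb, lay above the highest of every other member. IFIT1 followed at a mean of 12.1 CPM per kb over the 6 sums, then IFIT3 at 9.14, IFIT5 at 4.26, IFI44 at 3.18 and IFIT2 at 2.94 CPM per kb. MX1 at 1.53 and RSAD2 at 1.43 CPM per kb came next, and IFI44L at 0.160 and MX2 at 0.0572 CPM per kb were the scarcest. Below IFI6 the ranges of every pair of neighbours in this order overlapped. IFI44 exceeded IFIT2, and MX1 exceeded RSAD2, in 2 of the 6 sums only, so the order within these pairs is not settled by the spread. The members thus spanned a scale from abundant IFI6 and IFIT1 to MX2, which is close to the counting limit.

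**Figure D1:**
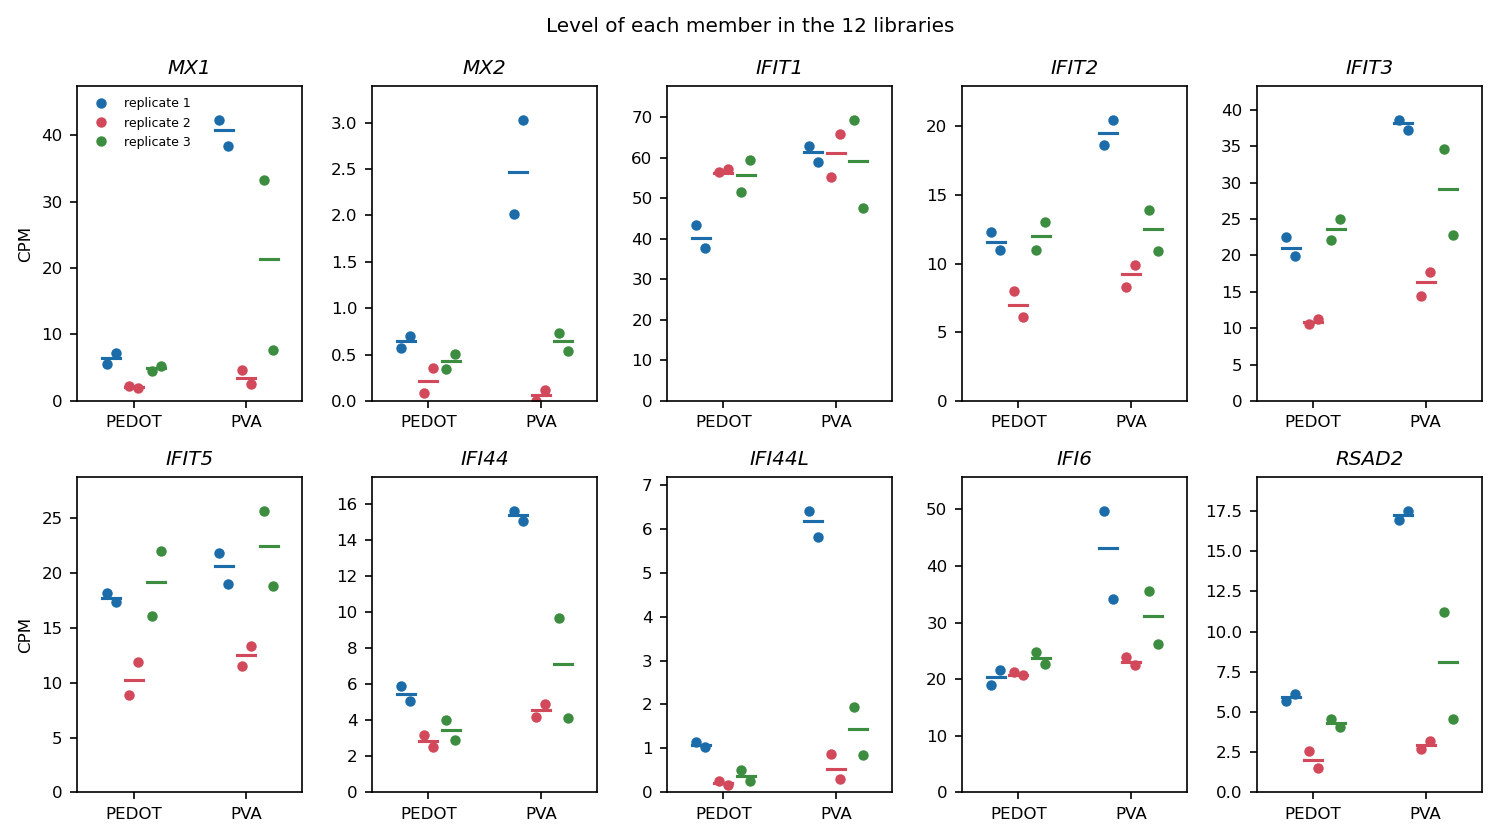
CPM of each of the 10 genes in the 12 libraries, with PEDOT left of PVA and the replicate numbers in colour. Points are technical libraries and bars are the CPM of the summed counts of the 2 libraries of a replicate. The highest MX1 values are those of PVA replicate 1, at 42.3 and 38.3 CPM, and IFIT1 lies between 37.7 and 69.4 CPM throughout.

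MX1, the influenza-restricting GTPase, was lower on PEDOT and the most uneven member on PVA by absolute range. Its 3 PEDOT sums, in order of replicate number, were 6.44, 2.07 and 4.95 CPM, against 40.7, 3.43 and 21.4 CPM in the PVA sums. The sum of PVA replicate 2 lay among the PEDOT sums, so the scaffolds overlapped, while PVA replicates 1 and 3 stood above every PEDOT sum. The log2 fold change of PEDOT over PVA was -2.28 ± 0.83 (SE) without regard to replicate number. With the replicate number as a block, which compares each PEDOT sum with the PVA sum of the same number, it was -2.02 ± 0.23, or 4.06-fold lower. The highest PVA library held 16.9 times the MX1 level of the lowest, against 3.72 times on PEDOT.

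MX2, the nuclear-pore-associated relative that restricts HIV, was present at few counts. Its PEDOT sums were 0.642, 0.215 and 0.425 CPM, against 2.47, 0.0652 and 0.644 CPM on PVA. In replicate 2 these rest on 10 counts on PEDOT and 3 on PVA, a ratio of 3.30 with a 95% exact binomial interval of 0.850 to 18.7, which covers counting error only. Library 2 of PVA replicate 2 had no MX2 count, which allows up to 0.152 CPM. The replicate 2 difference was therefore not detectable at this depth in either direction. Both PEDOT libraries lay below both PVA libraries in replicates 1 and 3. In replicate 3 the nearest libraries were 0.501 CPM on PEDOT, from 12 counts, and 0.538 CPM on PVA, from 14 counts. No counting interval was computed for that gap, so it is not read as a difference.

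Among the IFIT genes the level and the spread went different ways. IFIT1, the cap-sensing member, was the most even of the 10 over the 12 libraries, with sums at 40.2, 56.3 and 55.7 CPM on PEDOT, against 61.4, 61.2 and 59.3 CPM on PVA. It was the only member whose 3 PEDOT sums were all below the 3 PVA sums, as were 2.31% of all genes tested. The difference was small, at -0.27 ± 0.09 (log2, SE, with the replicate block), and it was -0.61 in replicate 1, -0.12 in replicate 2 and -0.09 in replicate 3. Single libraries of IFIT1 overlapped, from 37.7 to 59.5 CPM on PEDOT and from 47.7 to 69.4 CPM on PVA.

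IFIT3, the stabilising partner of IFIT1, was at 21.1, 10.8 and 23.6 CPM on PEDOT, against 38.2, 16.4 and 29.1 CPM on PVA. IFIT2, which forms complexes with IFIT3, was at 11.6, 6.97 and 12.04 CPM on PEDOT, against 19.5, 9.22 and 12.5 CPM on PVA. In both genes the scaffolds overlapped, and replicate 2 was the lowest sum on each scaffold. With the replicate block the log2 fold changes were -0.59 ± 0.10 for IFIT3 and -0.41 ± 0.12 for IFIT2 (SE). IFIT5, a single-subunit RNA binder of the family, was at 17.7, 10.3 and 19.2 CPM on PEDOT, against 20.7, 12.6 and 22.5 CPM on PVA. Its scaffold difference was the smallest of the 10, at -0.25 ± 0.08, and differed little between replicate numbers, which gave -0.22, -0.29 and -0.23. Replicate number took 90.5% of its variance in log2 CPM over the 6 sums, and the scaffold 9.39%.

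The neighbours IFI44 and IFI44L showed one pattern at different levels. IFI44 was at 5.46, 2.84 and 3.44 CPM on PEDOT, against 15.4, 4.59 and 7.12 CPM on PVA. IFI44L was at 1.08, 0.215 and 0.383 CPM on PEDOT, against 6.17, 0.543 and 1.43 CPM on PVA. In both, PVA replicate 1 stood highest and PVA replicate 2 lay below PEDOT replicate 1. The log2 fold change with the replicate block was -1.11 ± 0.15 for IFI44 and -2.11 ± 0.27 for IFI44L (SE), so the scarcer gene had the larger fold. IFI44L rests on 10 to 285 counts per sum.

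RSAD2, the viperin enzyme, was at 5.90, 2.04 and 4.32 CPM on PEDOT, against 17.2, 2.98 and 8.12 CPM on PVA. As with MX1, PVA replicate 2 lay within the PEDOT range and the other PVA sums above it. Its log2 fold change with the block was -1.06 ± 0.16 (SE). IFI6, the membrane protein, was even on PEDOT, at 20.4, 20.8 and 23.8 CPM, against 43.1, 23.1 and 31.3 CPM on PVA. Only PVA replicate 2 overlapped the PEDOT sums of IFI6, by less than 1 CPM. The scaffold took 50.2% of the variance of IFI6 in log2 CPM, the highest share among the members, and the replicate number 23.3%.

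Set side by side, all 10 log2 fold changes were below 0, with a median of -0.90 without the block and -0.78 with it, where the medians of all 21298 genes were -0.006 and -0.004. Without the block, no member and no gene passed an adjusted p of 0.05 in edgeR, and DESeq2 called 0 as well. At an unadjusted p under 0.05, edgeR counted 190 genes. Of the members, 3 were among them, MX1, IFI44 and IFI6, all lower on PEDOT, where the background of such lower genes was 0.343%. With the replicate block, edgeR called 5 members lower, MX1, IFIT3, IFI44, IFI44L and RSAD2, and the background of genes called lower was 0.197%. That count became 0 members when the block was fitted with upper-quartile scaling, on genes averaging at least 5 CPM, or on the higher-numbered libraries alone. The filter at 5 CPM left IFI44L and MX2 untested. The choice of members used this contrast, so nothing is read from these counts. In 9 of 10 members the PEDOT sum was below the PVA sum in each of the 3 pairs, where the background was 15.5%, and MX2 in replicate 2 was the exception.

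**Figure D2:**
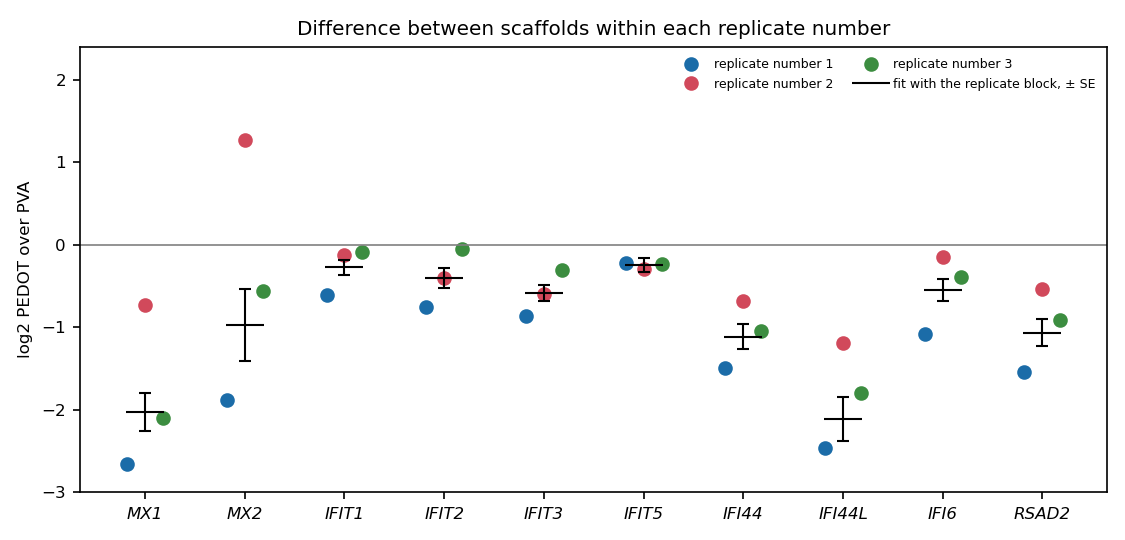
Log2 ratio of PEDOT over PVA for each gene within each replicate number (coloured points, from log2 CPM with a prior count of 2), with the fit that has the replicate block as a black bar ± SE. Replicate 1 is the lowest point in 9 of the 10 genes, and the 3 points of IFIT5 nearly coincide.

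The scaffold difference was widest in replicate 1 in 9 of 10 members, and IFIT5 was the exception. The share of all genes with their widest difference in replicate 1 was not counted. The median of the 10 differences was -1.28 in replicate 1, -0.47 in replicate 2 and -0.47 in replicate 3, against medians of all genes between -0.02 and 0.00. MX1 differed by -2.65, -0.72 and -2.10 in the 3 replicates in order, and IFI44L by -2.47, -1.19 and -1.80. Both libraries on PEDOT lay below both on PVA in 10 of 10 members in replicate 1, in 7 of 10 in replicate 2 and in 5 of 10 in replicate 3. The same was true of 20.1%, 25.2% and 17.3% of all genes in those replicates. MX1, IFI44, IFI44L and IFI6 were separated in this way in all 3 replicates.

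The difference between replicates in the scaffold effect was tested as an interaction over the 12 libraries, where the error is the spread between technical libraries only. With edgeR and Benjamini-Hochberg adjustment, 0 of the 10 members and 56 of 18546 genes (0.302%) were called. At an unadjusted p under 0.05 there were 4 members, MX2, IFIT1, IFIT2 and IFI6, where the background was 10.7%. DESeq2 called 1 member, IFI6, among 200 genes of the whole table. The coefficients of replicates 2 and 3 were above 0 in 9 of 10 members each, so PEDOT over PVA was higher there than in replicate 1. IFIT5 was the exception in both. Over all 18546 genes, 8950 were above 0 for replicate 2 and 9189 for replicate 3. These signs come from the same libraries as the differences within replicates above and add no separate evidence. That replicate 1 differs from the others is not established by this test. Without PVA replicate 3 library 1, that replicate has 1 library left and no spread of its own, so calls of the interaction there are not read.

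Replicate number took a larger share of the variance in log2 CPM than the scaffold in 8 of 10 members. The exceptions were IFI6, given above, and IFIT1, with 25.7% for replicate number and 42.2% for the scaffold. With 3 levels against 2, replicate number tends to take the larger share in any gene. The same count over all genes was not made, so the 8 of 10 is not read as a trait of the members. The test of replicate number was fitted over all genes with the scaffold as a term. Values of the same libraries were in view when the members were chosen, so its counts for the members are a description. This test called 8 of 10 members with edgeR, where the background was 31.8% of genes. The exceptions were IFIT1 (adjusted p = 0.216) and IFI6 (adjusted p = 0.0924). Against replicate 1, replicate 2 was called lower in 9 of 10 members, where the background was 15.7%. The log2 fold change of replicate 2 over replicate 1 was -3.26 ± 0.59 in MX2, -3.10 ± 0.33 in IFI44L, -2.76 ± 0.29 in MX1 and -2.08 ± 0.21 in RSAD2 (SE). IFIT1 went the other way without passing the test, at 0.23 ± 0.11 (edgeR adjusted p = 0.139). Replicate 3 was called lower than replicate 1 in 3 members, IFI44L at -1.88 ± 0.29, IFI44 at -0.92 ± 0.18 and RSAD2 at -0.81 ± 0.19, where the background was 6.42%. Replicate 2 thus had the lowest sum of MX1, MX2, IFIT2, IFIT3, IFIT5, IFI44, IFI44L and RSAD2 on each scaffold.

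**Figure D3:**
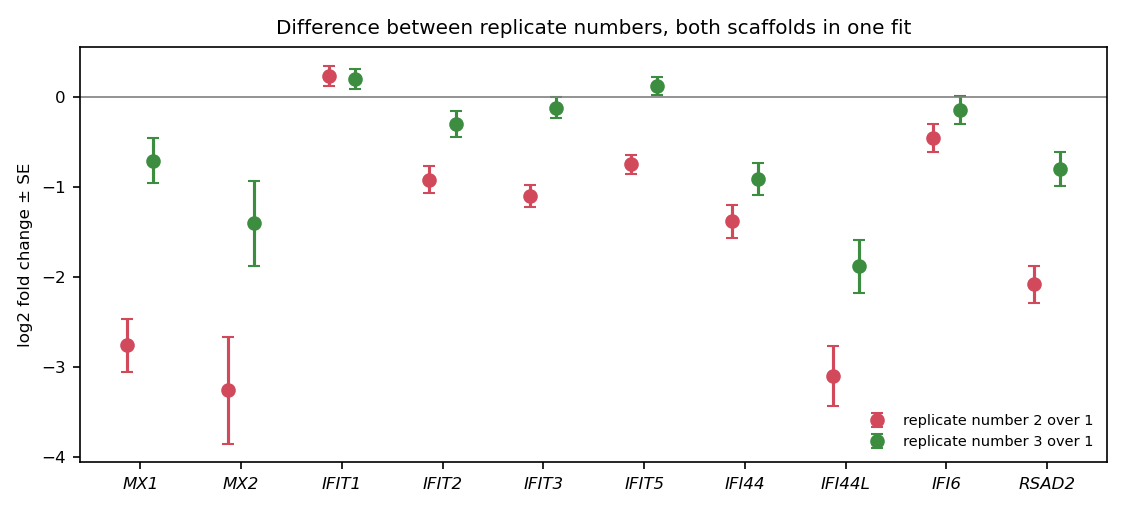
Log2 fold change ± SE of replicate number 2 over 1 (red) and 3 over 1 (green) for each gene, from 1 fit over both scaffolds. Replicate 2 lies below 0 in 9 of the 10 genes, and IFIT1 lies above 0 in both contrasts.

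Cell type markers also differed between replicate numbers, and some between scaffolds. The summed level of 6 fibroblast and stroma markers was 288 to 409 CPM on PEDOT and 326 to 329 CPM on PVA in replicate 2. In replicates 1 and 3 it was 1671 to 3315 CPM on PEDOT and 1380 to 1919 CPM on PVA. Most of this sum was COL1A1, at a mean of 1650 CPM on PEDOT and 1124 CPM on PVA. Each other marker of this list averaged 28.3 CPM or less on either scaffold, so the sum mainly follows 1 gene. Smooth muscle and pericyte markers, 5 in number, were also lowest in replicate 2 on each scaffold. The 8 cardiomyocyte markers summed to 62003 to 88537 CPM on PEDOT and 53708 to 75674 CPM on PVA, with all 8 detected, so the labelled cell type was present. The 10 immune markers summed to at most 2.84 CPM on PEDOT and 3.30 CPM on PVA, with LILRA4 at 0 in every library and 9 of 10 below 1 CPM. Endothelial markers summed to 10.9 to 18.02 CPM on PEDOT and 16.8 to 23.6 CPM on PVA. Most of that was KDR, at a mean of 13.5 CPM on PEDOT and 18.1 CPM on PVA, and 5 of the 6 were below 1 CPM. Between scaffolds, with the block, the pericyte marker RGS5 was called lower on PEDOT, at -0.46 (log2, edgeR adjusted p = 0.00795). The other markers of its list were not called and went both ways, at 0.26 for PDGFRB, 0.15 for MYH11, -0.12 for CNN1 and -0.30 for TAGLN. The cardiomyocyte marker MYH7 was called higher, at 0.95 (log2, edgeR adjusted p = 0.0382). The other cardiomyocyte markers were not called and ran from -0.06 for NKX2-5 and -0.02 for MYH6 to 0.34 for MYL7. RGS5 and MYH7 are thus single genes and do not stand for their lists. All 4 proliferation markers had values below 0 and were not called, at -0.68 for RRM2, -0.48 for BIRC5, -0.46 for MKI67 and -0.38 for TOP2A (log2). The part of these markers in the replicate and scaffold differences of the members was not tested. In bulk RNA, fewer cells of a type and less RNA per cell cannot be told apart.

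The members differed most between technical libraries in 1 of the 6 replicates. In the other 5, 0 to 2 members differed between the libraries by more than the 95th percentile of all genes. Differences inside that percentile were not all small, at -0.88 for MX1 in PVA replicate 2 and -0.54 for IFI6 in PVA replicate 1 (log2, higher- over lower-numbered library). In PVA replicate 3, library 3 was below library 1 in 10 of 10 members, and 4 members were past that percentile of 1.02. The log2 differences were -2.11 for MX1, -1.29 for RSAD2, -1.21 for IFI44 and -1.12 for IFI44L. The other induced genes named below shared this direction, with 39 of 42 below 0 and a median of -0.23. The share of all genes below 0 between these 2 libraries was not counted. The shared direction is therefore not read as a trait of these genes. What separates the technical libraries is not stated in the labels. Without library 1 of PVA replicate 3, the fit with the replicate block called 36 genes, of which 1 was a member, IFI44L. MX1 stood at -1.48 there and was not called. Without library 3 of PEDOT replicate 1 the fit called 4 genes and 0 members, with MX1 at -2.04. Without library 2 of PEDOT replicate 1 it called 15 genes and 3 members, MX1, IFI44 and IFI44L.

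**Figure D4:**
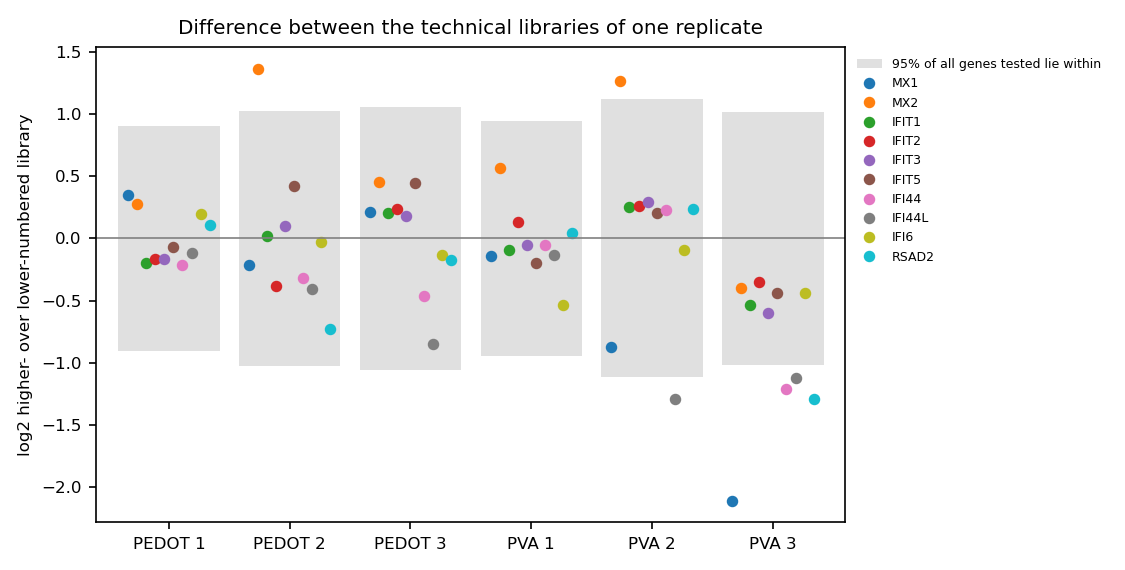
Log2 ratio of the higher-numbered over the lower-numbered technical library of each replicate, for the 10 genes (coloured points). Grey bands hold 95% of all genes tested; in PVA replicate 3 all 10 genes lie below 0, MX1 at -2.11, and MX2 lies above the band in PEDOT 2 and PVA 2 on few counts.

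Across the 12 libraries the members moved together, with IFIT1 apart. Pearson's r of log2 CPM over the 36 pairs without IFIT1 ran from 0.56 to 0.96 with a median of 0.82. Over the 9 pairs with IFIT1 it ran from -0.01 to 0.50 with a median of 0.16. MX1 and RSAD2, on different chromosomes, correlated at 0.96, as did the neighbours IFI44 and IFI44L. MX1 and its neighbour MX2 correlated at 0.79. IFIT1 correlated with its neighbours IFIT3 and IFIT5 at 0.20 and 0.07, although IFIT3 and IFIT5 correlated with each other at 0.91. These values are descriptions over libraries that come in 6 pairs of technical libraries and share depth and scaling.

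**Figure D5:**
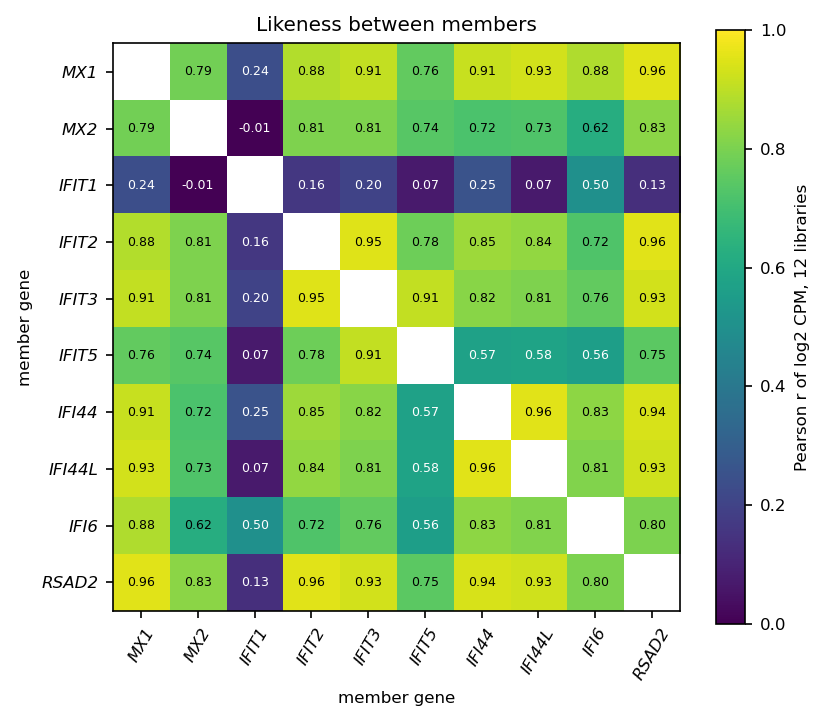
Pearson's r between the log2 CPM of each pair of the 10 genes over the 12 libraries, on a colour scale that starts at 0. The row of IFIT1 lies between -0.01 and 0.50, and the other pairs lie at 0.56 or above.

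The genes most like the members' mean profile over the 12 libraries, among 15676 other genes with a mean of 1 CPM or more, were DDX58 at an r of 0.984, HELZ2 at 0.981, USP18 at 0.968, OAS1 at 0.966 and ISG15 at 0.965. DDX58 encodes the RNA sensor RIG-I, HELZ2 a helicase and nuclear receptor coactivator, USP18 a protease that removes ISG15, OAS1 an enzyme that makes the activator of RNase L, and ISG15 a ubiquitin-like modifier. The 95th percentile of r over these genes was 0.714. MX1 alone was most like OAS1 at 0.986, OAS2 at 0.986 and ISG15 at 0.958. OAS1 averaged 0.542 ± 0.434 CPM on PEDOT and 3.88 ± 3.69 CPM on PVA (SD, n = 3 each).

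Upstream of the members, the interferon genes that were looked up were scarcely read. IFNB1, IFNE, IFNK, IFNG, IFNL1, IFNL2 and IFNL3 had 1 to 4 counts each over the 12 libraries together. The IFNA genes were not looked up. The type I receptor was read at both chains. IFNAR1 averaged 57.0 ± 6.32 CPM on PEDOT and 60.6 ± 6.33 CPM on PVA, and its partner IFNAR2 averaged 8.29 ± 1.20 CPM on PEDOT and 8.85 ± 1.89 CPM on PVA (SD, n = 3 each). With the block their log2 fold changes were -0.09 ± 0.06 and -0.09 ± 0.11 (SE). Of 31 ligands, receptors, kinases, factors and sensors, 23 were tested, none was called between scaffolds with the block, 19 were below 0 and the median was -0.09. Of the genes of smallest p in this group, SOCS3, a feedback inhibitor, stood at -0.20 ± 0.07 (edgeR adjusted p = 0.399), and IRF7, which amplifies interferon production, at -0.55 ± 0.20 (edgeR adjusted p = 0.432).

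Of 44 other interferon-induced genes, 42 were tested. With the replicate block 11 were called lower on PEDOT and 0 higher, where the background was 0.197% lower and 0.0704% higher, and all 42 were below 0 with a median of -0.41. With the block and upper-quartile scaling, or a mean CPM of 5 or more, 1 gene of the whole table was called, so at most 1 of these 11 calls could hold there. The filter at 5 CPM left OAS1, OAS2 and OAS3 untested. These genes were listed with earlier results of these samples known, so the count is a description. OAS1, OAS3 and OAS2 had the smallest p, at -2.74 ± 0.27, -1.91 ± 0.22 and -2.44 ± 0.32 (log2, SE), folds of the size seen in MX1 and IFI44L. Replicate number was called in 36 of the 42 and in 14 of the 23 signalling genes, where the background was 31.8%. The response-element core was present in 23 of the 35 of these induced genes with a promoter (65.7%) and in 5 of the 24 signalling genes with one (20.8%).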

How the data were processed

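The authors deposited unnormalised counts by gene name for 12 libraries, made with featureCounts 2.0.1 in reversely stranded, paired mode on GENCODE 33, per the file headers. The submitters' processing notes name FastQC, STAR, DESeq2, edgeR and hg38; the aligner's version is not given in the sources used here. Reads matching several places or genes were left out. RNA was ribodepleted total RNA, per the labels' protocols.

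Technical libraries were summed to 6 sums, the unit of the tests. The filter filterByExpr was used with a minimum count of 10 and a minimum total of 15, and genes were TMM-scaled and tested two-sided in edgeR 4.0.16 under R 4.3.3 (glmQLFit, glmQLFTest, Benjamini-Hochberg, threshold 0.05), with the scaffold alone, with the replicate number as a block, for replicate number, and for the interaction over 12 libraries. SEs come from the log2 fold change over the root of F. DESeq2 1.42.0 was an alternative. Log2 CPM used a prior count of 2. The procedure was also run on simulated data, and the outcome is not reported here. A count of 0 genes called is therefore not read as no difference.

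After subtracting scaffold means, sums that share a number correlated over genes at 0.678, 0.703 and 0.503, while unlike numbers gave -0.609 to -0.005. The subtraction pulls unlike numbers below 0 once like numbers lie above it, so the negative values add no evidence of pairing. Every same-number value passed 0.1, the level set for treating the numbers as pairs. This pairing rests on the values, and the labels name no shared culture or day.

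The 10 members and the lists were chosen with earlier results of these data known. Text names all members, the 5 genes most like their mean, the 3 most like MX1, IFIT1B and the 3 of smallest paired p per list; single receptor and antisense genes were added after their values were seen. Protein sequences were not used here, and 1 gene of the signalling list is not reported here. Counting intervals cover counting error only.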

Additional observations from a re-analysis of the deposited data

How the results depend on the processing

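Without the replicate block, 0 genes and 0 members were called in the 10 fits with other scalings, filters, libraries or DESeq2 (the reported one included), the 6 that left out a sum and the 12 that left out a library. The replicate block gave 57 genes and 5 members. Combined with the block, upper-quartile scaling gave 1 gene and 0 members, library size only 37 and 4, DESeq2 96 and 4, no filter on low counts 389 and 7, a mean CPM of at least 1 gave 14 and 2, of at least 5 gave 1 and 0, the lower-numbered libraries alone 16 and 2, the higher-numbered alone 4 and 0, and 12 libraries as samples 194 and 5. Leaving out replicate number 1, 2 or 3 with the block gave 170, 22 or 284 genes and 5, 4 or 8 members. Leaving out 1 library with the block gave 15 genes and 3 members (PEDOT replicate 1 library 2), 4 and 0 (PEDOT 1 library 3), 35 and 4 (PEDOT 2 library 1), 63 and 5 (PEDOT 2 library 2), 27 and 4 (PEDOT 3 library 1), 39 and 5 (PEDOT 3 library 3), 73 and 5 (PVA 1 library 2), 22 and 4 (PVA 1 library 3), 45 and 5 (PVA 2 library 2), 28 and 4 (PVA 2 library 3), 36 and 1 (PVA 3 library 1), and 63 and 5 (PVA 3 library 3). Log2 fold changes turned above 0 for IFIT5, at 0.0025 in the higher-numbered libraries alone without the block, and for MX2, which ran from -1.83 to 0.24 when 1 sum was left out (highest without PVA replicate 1) and stood at 0.047 with the block without replicate 1. Replicate number called 3020 to 6144 genes and 5 to 9 members when 1 number was left out, lowest without replicate 2. The interaction called 200 genes and 1 member with DESeq2, 0 to 104 genes and 0 to 2 members when 1 number was left out, and 120 genes and 3 members without PVA replicate 3 library 1. By the median over 12 libraries, 4 members changed place in the order of levels, and 0 did without TMM. The causes were not tested. Depth limits MX2 and IFI44L most. The filter at a mean of 1 CPM left MX2 untested, and the filter at 5 CPM left both MX2 and IFI44L untested.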
